A study of Homo sapiens with 9 samples.

Results

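The 10 genes described here are regulators of pluripotent cells and of the early embryo, POU5F1, NANOG, SOX2, LIN28A, LIN28B, DPPA2, DPPA3, DPPA4, ZFP42 and TDGF1, followed in HT-29 cells, an established human colon adenocarcinoma line. They were taken by symbol from the 23284 gene symbols of the RNA-Seq expression values, the values of repeated entries of a symbol being summed. The cultures received dimethyl sulfoxide alone (the vehicle, 0 µM 5-Aza), 5 µM 5-Aza or 10 µM 5-Aza for 5 days, with 3 replicate cultures at each concentration. 5-Aza (5-aza-deoxycytidine) is a cytosine analogue that traps DNA methyltransferases, so that newly made DNA loses methylation at CpG dinucleotides. All samples come from 1 cell line with no normal colon beside it, DNA methylation itself was not measured in the values used here, and in bulk RNA a change in the number of cells that transcribe a gene cannot be told apart from a change in RNA per cell.

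In embryonic stem cells POU5F1 (OCT4), SOX2 and NANOG bind many regulatory regions together and maintain the pluripotent state. LIN28A and LIN28B are RNA-binding proteins that block the maturation of let-7 microRNAs, ZFP42 (REX1) and the DPPA genes are transcribed in the early embryo, the germ line or undifferentiated stem cells, and TDGF1 (Cripto) is a membrane-anchored co-receptor of the growth factor Nodal. The promoters of several of these genes are methylated in somatic cells.

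Levels are given as FPKM, fragments per kilobase of transcript scaled to the mapped fragments of a library. Of the 10 genes, 7 were listed above 0 in at least 1 of the 9 libraries, 3 of them (POU5F1, LIN28A and TDGF1) in all 9, and 3 (DPPA2, DPPA3 and DPPA4) in none. In the control cultures 3, 4 and 5 of the genes were above 0 in replicates 1, 2 and 3, and 7, 6 and 7 in the 5 µM replicates. The 10 µM replicates listed 4, 5 and 4. Genes above 0 in every replicate of a group numbered 3 (control), 6 (5 µM) and 4 (10 µM), beside 66.6%, 76.6% and 70.3% of all symbols. The additions at 5 µM were SOX2, LIN28B and ZFP42, and at 10 µM SOX2 alone remained of these 3. With at least 3 estimated fragments in all 3 replicates required in place of any value above 0, the numbers were 2, 4 and 4.

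**Figure D1:**
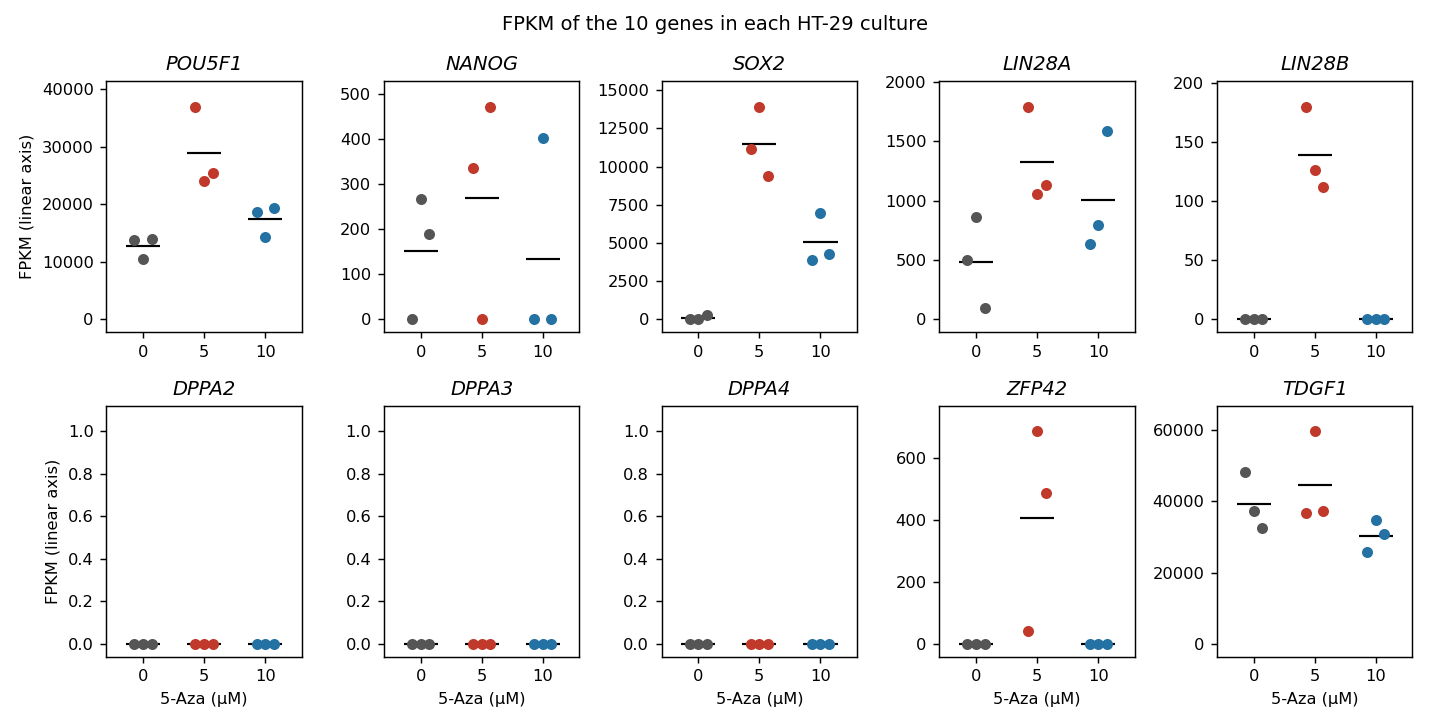
FPKM (linear axis, scaled separately for each gene) of the 10 genes against the concentration of 5-Aza in µM. Each point is 1 culture and each bar is the mean of 3. SOX2 lay between 9407 and 13928 at 5 µM and at or below 311 in the control cultures, LIN28B and ZFP42 had values above 0 at 5 µM alone, and DPPA2, DPPA3 and DPPA4 were listed at 0 throughout.

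The sequences just upstream of the starts of SOX2, ZFP42 and LIN28B are shown with their CpG dinucleotides marked. These genes were above 0 in all 3 replicates at 5 µM but not in all 3 of the control. DPPA3, listed at 0 in every library and with the fewest CG of the windows held, stands beside them. Methylation of these windows was not measured, and its part in the values was not tested. RefSeq promoter windows were held for 7 of the 10 genes (NANOG, SOX2, LIN28B, DPPA2, DPPA3, DPPA4 and ZFP42). The 250 bases before the annotated start are given 5′ to 3′ on the strand of the gene, with each CG in capitals. They were matched exactly, at a single place each, to the GRCh37 (hg19) genome at chr3:181429463-181429712 for SOX2, chr4:188916675-188916924 for ZFP42, chr6:105388590-105388839 and chr6:105404732-105404981 for the upstream and downstream starts of LIN28B, and chr12:7863779-7864028 for DPPA3, all on the plus strand.
SOX2: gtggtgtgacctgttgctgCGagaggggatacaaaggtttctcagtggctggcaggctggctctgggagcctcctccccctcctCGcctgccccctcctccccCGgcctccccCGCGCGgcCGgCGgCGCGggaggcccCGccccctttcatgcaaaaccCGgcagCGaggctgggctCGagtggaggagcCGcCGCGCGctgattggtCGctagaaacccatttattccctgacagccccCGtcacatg
ZFP42: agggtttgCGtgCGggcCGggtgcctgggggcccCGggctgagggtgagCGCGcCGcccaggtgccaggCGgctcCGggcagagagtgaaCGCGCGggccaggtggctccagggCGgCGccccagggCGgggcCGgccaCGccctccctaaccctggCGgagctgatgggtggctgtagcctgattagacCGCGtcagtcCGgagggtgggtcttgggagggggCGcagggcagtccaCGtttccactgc
LIN28B, upstream start: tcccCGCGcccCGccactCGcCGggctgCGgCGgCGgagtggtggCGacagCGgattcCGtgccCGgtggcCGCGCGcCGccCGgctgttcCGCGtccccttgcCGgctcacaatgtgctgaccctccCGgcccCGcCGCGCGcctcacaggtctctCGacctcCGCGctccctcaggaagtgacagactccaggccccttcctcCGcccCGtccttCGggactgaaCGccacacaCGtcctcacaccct
LIN28B, downstream start: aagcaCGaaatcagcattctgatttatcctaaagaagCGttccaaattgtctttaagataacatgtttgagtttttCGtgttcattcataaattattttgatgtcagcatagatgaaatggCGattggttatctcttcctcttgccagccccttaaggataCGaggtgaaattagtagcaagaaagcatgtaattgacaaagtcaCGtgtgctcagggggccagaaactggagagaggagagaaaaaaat
DPPA3: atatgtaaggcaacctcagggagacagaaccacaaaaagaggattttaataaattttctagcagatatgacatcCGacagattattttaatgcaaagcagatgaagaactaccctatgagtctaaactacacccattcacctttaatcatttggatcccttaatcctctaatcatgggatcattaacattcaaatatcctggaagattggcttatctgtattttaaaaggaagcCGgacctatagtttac

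CG occurred 20 times in the SOX2 window, 23 times in that of ZFP42, and 33 and 6 times at the upstream and downstream starts of LIN28B. The counts were 7 for DPPA2, 4 for NANOG, 3 for DPPA4 and 2 for DPPA3. CG reads the same on both strands. Across all 35116 windows of the same RefSeq collection the median was 11, 93.9% of windows held at least 1 CG, and 32.4%, 25.8%, 8.15% and 85.3% held at least as many as the windows of SOX2, ZFP42, the upstream start of LIN28B and DPPA3, respectively. The windows of the 3 genes listed at 0 in every library all lay below this median, as did that of NANOG and the downstream start of LIN28B. These are descriptions of sequence, and which LIN28B start was used cannot be read from values summed by gene.

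SOX2, a transcription factor of the core pluripotency circuit, had the largest log2 difference of the 10 genes. The gene is a single exon on the plus strand of chromosome 3 (GRCh37, 181429713 to 181432224). Its FPKM was 0, 0 and 311 in control replicates 1, 2 and 3, 11167, 13928 and 9407 at 5 µM, and 3914, 6935 and 4288 at 10 µM. None of the groups overlapped, the 5 µM cultures being the highest and the 10 µM cultures lying between them and the control. From the steps in which low FPKM values rise, these values were estimated to rest on 0, 0 and 2 fragments in the control, 81, 96 and 73 at 5 µM, and 15, 42 and 22 at 10 µM. A 0 in a control library allowed up to 661 to 997 FPKM, the level of 3 fragments, and the lowest treated culture lay above this. SOX2-OT, a non-coding gene on the same strand, spans all 2512 bases of SOX2 with no shared exon. Its FPKM was 0, 0 and 626 in the control, 0, 585 and 0 at 5 µM, and 526, 333 and 1571 at 10 µM, and it was not called (adjusted p = 0.995 for 5 µM vs. 0 µM, 0.187 for 10 µM vs. 5 µM and 0.133 for 10 µM vs. 0 µM). Its part in the SOX2 values was not tested.

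Rates of SOX2 were pooled over replicates and corrected for library depth as given by the FPKM steps. The estimated fragments over all symbols, which order the libraries differently, were not used for this. The SOX2 rate at 5 µM was 80.0 times that of the control (exact 95% interval for counting error alone, 21.9 to 664), resting on 250 and 2 fragments. At 10 µM it was 36.9 times the control rate (9.88 to 310) and 0.461 times the 5 µM rate (0.354 to 0.596). These intervals hold no spread between cultures. In the limma test on log2(FPKM + 1), p-values were adjusted over all symbols tested (Benjamini-Hochberg) and a gene was called, written as rose or fell, at an adjusted p up to 0.05 and a log2 difference beyond 1 or -1. SOX2 was higher than in the control at 5 µM (log2 difference 10.71 ± 2.29, standard error, adjusted p = 0.0123) and at 10 µM (9.49 ± 2.24, adjusted p = 0.0341). The size of such differences depends on the added 1 because of the control values at 0, and with 1000 added they were 3.50 and 2.43 (adjusted p = 6.92e-05 and 0.00315). Leaving out 1 replicate, the 5 µM difference remained between 9.33 and 13.47, but the adjusted p was 0.0526, 0.0516 or 0.0523 without 5 µM replicate 1, 2 or 3. The 10 µM call was kept without control replicate 3 (adjusted p = 0.00658) and lost without any other single replicate (0.0555 to 0.113). Between 10 µM and 5 µM the difference was -1.22 ± 0.33, or -0.98 relative to the median gene, and missed the threshold (adjusted p = 0.0816), except without 10 µM replicate 2 (-1.47, adjusted p = 0.0213) or with at least 10 estimated fragments required of every symbol tested (adjusted p = 0.0451). It was further from the threshold without any single 5 µM replicate (adjusted p = 0.205 to 0.255) and with all 9 samples in one fit (0.702).

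POU5F1, the core factor listed above 0 in every library, lies on the minus strand of chromosome 6 (GRCh37, 31132114 to 31148508). Its FPKM was 13761, 10494 and 14001 in the control, 36958, 24115 and 25388 at 5 µM, and 18585, 14325 and 19261 at 10 µM. All 5 µM cultures were above all others, and the lowest 10 µM culture was just above the highest control. Among symbols above 0 in the same library the gene stood at percentiles 25.8 to 30.4 in the control and 38.8 to 44.2 at 5 µM. POU5F1 rose at 5 µM by a factor of 2.24 (log2 difference 1.16 ± 0.22, adjusted p = 0.00793). Without 5 µM replicate 1 the difference was 0.97, below the threshold of 1, and the call was lost when limma treat tested against a fold of 2 (adjusted p = 1.000). The POU5F1 symbol has 7 entries per library, which were summed. With the largest entry alone the 5 µM difference from the control was also 1.16 (adjusted p = 0.00790). The values at 10 µM differed from the control by 0.45 ± 0.25 (adjusted p = 0.235) and from 5 µM by -0.71 ± 0.24 (adjusted p = 0.131), so neither passed the test. Relative to the median gene these differences were 0.68 and -0.47.

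POU5F1 has near-identical copies, and TCF19, a cell-cycle associated gene on the opposite strand, overlaps its span by 2823 bases and some of its non-canonical exons by 248 bases. Counting was not stated to use strand, so reads in the overlap cannot be assigned to either gene with certainty. None of the 1409 bases of the canonical POU5F1 transcript lies in a TCF19 exon. TCF19 had FPKM values of 23565, 18441 and 16061 in the control, 129799, 130910 and 140771 at 5 µM, and 41711, 61758 and 57121 at 10 µM. It rose at 5 µM (log2 difference 2.81, adjusted p = 0.000178), fell from 5 µM to 10 µM (-1.34, adjusted p = 0.00817) and was above the control at 10 µM (1.47, adjusted p = 0.0122). The fall was at an adjusted p just above 0.05 without 5 µM replicate 1 and at 0.0621 without 5 µM replicate 3, and the 10 µM vs. 0 µM value at 0.0508 and 0.0535 without control replicate 2 or 10 µM replicate 3. Its part in the POU5F1 values was not tested.

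The POU5F1 copies were listed above 0 in every library. At 5 µM all their values lay below the lowest POU5F1 value of 24115. In the control and at 10 µM the ranges of POU5F1B and POU5F1P4 overlapped that of the gene, and POU5F1P3 lay below it. POU5F1B, a transcribed retrocopy, lay between 6258 and 13200 in the control, 8333 and 17098 at 5 µM, and 14723 and 24580 at 10 µM. POU5F1P3 had values of 5473 to 8333 in the control and 12985 to 14661 at 5 µM, a difference of 0.96 (adjusted p = 0.0171) that fell just short of the threshold of 1. POU5F1P4 ranged from 8052 to 19891 over the 9 libraries and its groups overlapped. Of the 9 copies and overlapping genes measured 8 were tested at 5 µM, and TCF19 was the only 1 called in any comparison (median 0.39 beside 0.14 over all tested symbols, -0.60 beside -0.31 for 10 µM vs. 5 µM, and 0.30 beside -0.15 for 10 µM vs. 0 µM). Over all symbols 14.1% rose at 5 µM vs. 0 µM, 4.82% fell at 10 µM vs. 5 µM and 4.07% rose at 10 µM vs. 0 µM. PSORS1C3, a neighbour of POU5F1, was not called (for 5 µM vs. 0 µM 0.40, adjusted p = 0.338).

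NANOG, the homeobox factor of the core circuit, had no group in which it was steady. The gene is on the plus strand of chromosome 12 (GRCh37, 7940390 to 7951742). Its FPKM was 0, 268 and 189 in the control, 336, 0 and 472 at 5 µM, and 0, 403 and 0 at 10 µM. Each concentration held libraries at 0 and libraries above 0, and the estimated fragments behind a value numbered 1 to 3 with each FPKM step taken as 1 fragment. The annotated length of 5182 bases gives a step 0.380 times the one seen and with it 2.63 to 7.88 fragments, and which estimate holds was not tested. The difference between 5 µM and the control was 0.55 ± 3.23 (adjusted p = 0.904), and a change in NANOG was not detectable at this depth.

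LIN28A was listed above 0 in every control library and LIN28B in none. Their levels were not tested against each other, and a LIN28B value of 0 in the control allowed up to 205 to 438 FPKM at 3 fragments. LIN28A, on the plus strand of chromosome 1 (GRCh37, 26737308 to 26756219), had FPKM values of 501, 863 and 93.9 in the control, 1793, 1053 and 1130 at 5 µM, and 631, 799 and 1591 at 10 µM. Every 5 µM culture was above every control, while the 10 µM cultures overlapped both. The estimated fragments were 2.5, 6.5 and 1 in the control, 21.5, 12 and 14.5 at 5 µM, and 4, 8 and 13.5 at 10 µM, with 2 steps of FPKM to a fragment. The LIN28A difference at 5 µM was 1.90 ± 0.91 (adjusted p = 0.143), and at 10 µM it was 1.43 ± 1.01 (adjusted p = 0.342). Neither passed the test, and without control replicate 3, the lowest library, the 5 µM difference was 0.97.

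LIN28B, on the plus strand of chromosome 6 (GRCh37, 105384491 to 105531207), was listed at 0 in all control and all 10 µM libraries. Its FPKM at 5 µM was 180, 126 and 112, from an estimated 3, 2 and 2 fragments. The test called it higher at 5 µM than in the control (adjusted p = 0.00380) and lower at 10 µM than at 5 µM (adjusted p = 0.0421). No fold is given, since the other groups were at 0 and 3 fragments in a library at 0 would have been 205 to 438 FPKM, more than any value measured. Summed over replicates, 7 fragments were found at 5 µM in libraries with a combined depth of 7.27 relative to control replicate 1, against 0 fragments at combined depths of 4.65 in the control and 4.98 at 10 µM. With 1000 added in place of 1 both calls were lost (adjusted p = 0.216 and 0.387), and the 10 µM vs. 5 µM call was lost without any single replicate other than 10 µM replicate 2 (0.0782 to 0.116).

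ZFP42, a zinc-finger factor used as a marker of undifferentiated stem cells, followed the same on and off order. It lies on the plus strand of chromosome 4 (GRCh37, 188916925 to 188926200). Its FPKM was 43.4, 685 and 487 at 5 µM and 0 in all control and all 10 µM libraries, and the estimated fragments were 0.333, 5 and 4. A fragment was estimated at 3 steps here and the first 5 µM value was a single step, so the estimate behind it was less than 1 fragment. What such parts of a fragment stand for, here and at LIN28A, was not tested. A 0 elsewhere allowed 441 to 942 FPKM. The test called ZFP42 higher at 5 µM than in the control (adjusted p = 0.00679) and lower at 10 µM than at 5 µM (adjusted p = 0.0408). With 1000 added both calls were lost (adjusted p = 0.0930 and 0.187), and the 10 µM vs. 5 µM call was lost without 5 µM replicate 2 or 3 (0.132 and 0.168) or 10 µM replicate 1 or 3 (0.0759 and 0.0794).

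Many symbols listed at 0 in the control had values at 5 µM. Of the 5529 symbols at 0 in all 3 control libraries, 883 (16.0%) were above 0 in all 3 libraries at 5 µM, and of these 271 (30.7%) were again at 0 in all 3 at 10 µM. LIN28B and ZFP42 belong to both sets, whereas SOX2 does not, because of 1 control library. Depth moved with the groups: relative to control replicate 1 it was 1.00, 1.51 and 2.14 in the control, 2.41, 2.29 and 2.57 at 5 µM, and 1.27, 2.01 and 1.70 at 10 µM. How much of the number of genes listed above 0 follows depth was not tested.

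**Figure D2:**
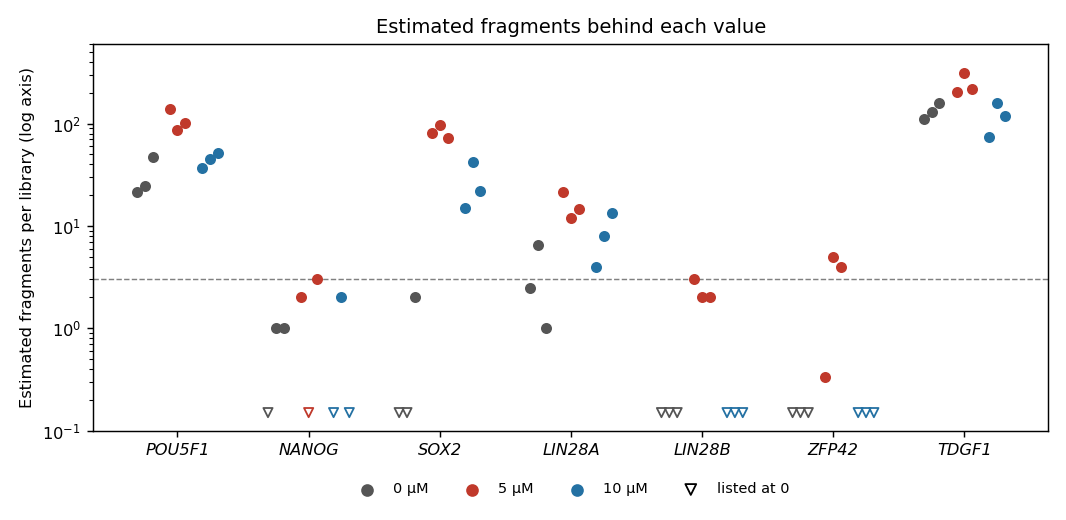
Estimated fragments per library (log axis) behind the FPKM values of the 7 genes listed above 0 in at least 1 library, coloured by concentration of 5-Aza, with open triangles for libraries listed at 0 and a dashed line at 3 fragments. LIN28B and NANOG (at 1 fragment per FPKM step) reached 3 fragments at most and ZFP42 5, while SOX2 held 73 to 96 at 5 µM.

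DPPA2 and DPPA4, neighbouring genes whose chromatin-binding products activate early embryonic genes, and DPPA3 (STELLA), a maternal factor that protects the genome of the early embryo from loss of methylation, were listed at 0 in all 9 libraries. DPPA2 and DPPA4 lie on the minus strand of chromosome 3 (GRCh37, 109012635 to 109035364 and 109044991 to 109056393), and DPPA3 on the plus strand of chromosome 12 (7864029 to 7870155). At 3 fragments per library a 0 allowed up to 761 to 1958 FPKM for DPPA2, 1003 to 2582 for DPPA3 and 346 to 891 for DPPA4. The values of LIN28B at 5 µM lie below all of these limits and those of SOX2 at 5 µM above them, so low levels of the DPPA genes were not detectable at this depth.

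TDGF1 had the highest mean FPKM of the 10 genes at each concentration and did not change past the threshold at either concentration. It lies on the plus strand of chromosome 3 (GRCh37, 46616024 to 46623947). Its FPKM was 48147, 37390 and 32391 in the control, 36865, 59657 and 37224 at 5 µM, and 25768, 34677 and 30734 at 10 µM, from an estimated 74.7 to 311 fragments. The control and 5 µM cultures overlapped, and the 10 µM cultures all lay below the 5 µM cultures. The differences were 0.16 ± 0.24 (adjusted p = 0.597) for 5 µM vs. 0 µM, -0.53 ± 0.24 (adjusted p = 0.224) for 10 µM vs. 5 µM, and -0.36 ± 0.21 (adjusted p = 0.260) for 10 µM vs. 0 µM, while the median of genes above 0 moved by -0.04, -0.24 and -0.23 in the same comparisons. Without 5 µM replicate 2 the first difference was -0.07, and with every library scaled to the same total the last was 0.02. LRRC2, on the other strand, shares 110 bases (5.62%) of the canonical TDGF1 exons and was not called in any comparison (5 µM vs. 0 µM 0.39, adjusted p = 0.105), nor was the copy TDGF1P3 (0.02, adjusted p = 0.948).

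Over the group, 7 of the 10 genes were tested at 5 µM vs. 0 µM, and 4 of them rose (POU5F1, SOX2, LIN28B and ZFP42) and 0 fell, beside 14.1% of 20051 symbols that rose and 2.17% that fell. In 5 genes every 5 µM culture was above every control, beside 29.4% of the symbols tested. At 10 µM vs. 5 µM, 7 genes were tested and 2 fell (LIN28B and ZFP42) with 0 rising, beside 4.82% and 0.129% of 20085 symbols. In 5 genes (POU5F1, SOX2, LIN28B, ZFP42 and TDGF1) every 10 µM culture was below every 5 µM culture, beside 25.3% of symbols. At 10 µM vs. 0 µM 5 genes were tested and SOX2 alone rose with 0 falling, beside 4.07% and 3.40% of 18928 symbols, and 2 genes (POU5F1 and SOX2) did not overlap the control from above, beside 14.4%. Scaling moved this last background from 771 rising and 644 falling symbols to 1362 and 164 with equal totals. A gene at 0 in both groups, or too low, was not tested, so these counts leave out DPPA2, DPPA3 and DPPA4 in each comparison and LIN28B and ZFP42 in the last. In the other comparisons LIN28B and ZFP42 passed the filter through the 5 µM libraries alone. They could only rise at 5 µM and only fall at 10 µM, so their calls are no measure of direction. Exact 2-sided permutation tests of single genes, 3 cultures against 3, cannot fall below p = 0.1, which was the value for the 5 non-overlapping genes at 5 µM.

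**Figure D3:**
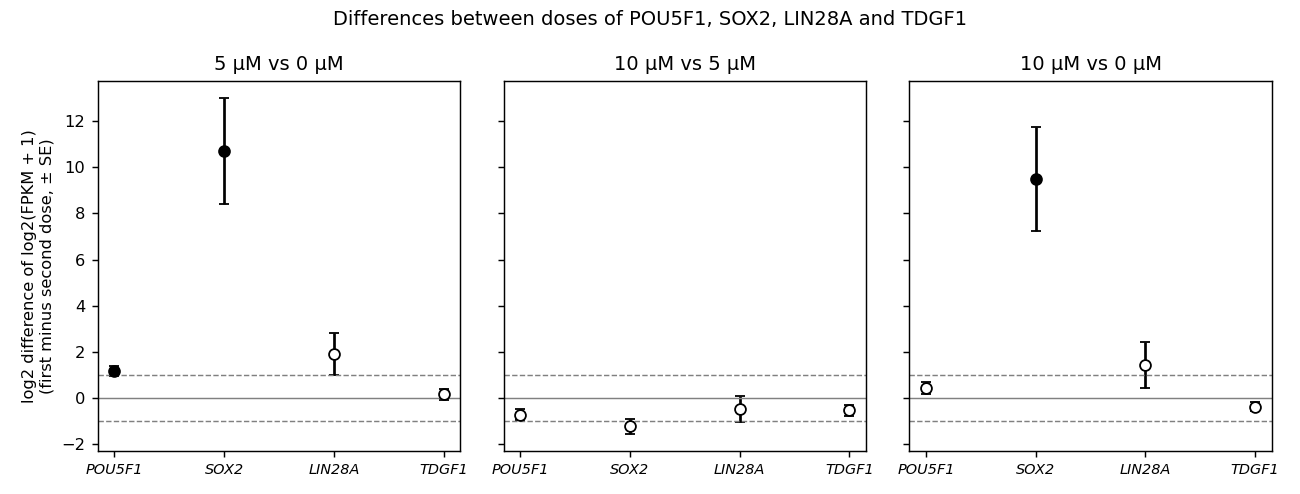
Log2 difference of log2(FPKM + 1), first minus second concentration, with its standard error (bars) for POU5F1, SOX2, LIN28A and TDGF1 in the 3 comparisons. Filled points were called (adjusted p at or below 0.05 and beyond the dashed lines at 1 and -1), which was the case for POU5F1 and SOX2 at 5 µM vs. 0 µM and for SOX2 at 10 µM vs. 0 µM.

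Other transcription factors of the pluripotency network were followed in a list of 16. At 5 µM 13 were tested, 4 rose and 0 fell (14.1% and 2.17% of all symbols), with a median log2 difference of 2.83 beside 0.14 over all tested symbols. In this list 7 genes were at 0 in all control libraries. Those of them that were tested passed the filter through 5 µM alone and could only rise. The median of 2.83 was the value of OTX2, above 0 in 1 library at 5 µM and not called (adjusted p = 0.418). With 1000 added, which limits the weight of genes at 0, the medians of the list and of all tested symbols were 0.47 and 0.09. SALL4, a stem-cell zinc-finger factor that was already expressed, rose from 23772, 28093 and 34818 FPKM to 78673, 60157 and 65661 (log2 difference 1.25, adjusted p = 0.00242). NR0B1 (DAX1), a nuclear receptor, went from 0 in all controls to 1617, 486 and 1296 and was again at 0 in all 10 µM libraries (adjusted p = 0.000884 and 0.00777). FOXD3, a forkhead factor, was listed at 683, 360 and 160 at 5 µM against 0 in the control (adjusted p = 0.00210), and TFCP2L1, 252, 668 and 1377 in the control, rose to 2619, 2646 and 3199 (2.19, adjusted p = 0.0448), a call lost without any single 5 µM replicate (0.107 to 0.131) or control replicate 2 (0.0821). With 1000 added the FOXD3 call was lost (adjusted p = 0.0536).

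At 10 µM vs. 5 µM 13 factors of this list were tested, 0 rose and 2 fell, NR0B1 and NR5A2 (4.82% of all symbols fell, median -1.08 beside -0.31). NR0B1, at 0 in all 10 µM libraries, could only fall. NR5A2, a nuclear receptor that is also expressed in the gut, had 43046, 52821 and 49121 FPKM in the control and 16870, 16660 and 14413 at 10 µM. It fell at 10 µM against 5 µM (-1.25, adjusted p = 0.00970) and against the control (-1.59, adjusted p = 0.00556). The former call was lost without 5 µM replicate 2 or 3 (0.0534 and 0.0670), and that of NR0B1 without 5 µM replicate 3 (0.0573). In the latter comparison 10 factors were tested, 0 rose and 1 fell (4.07% and 3.40% of all symbols), with a median of 1.02 beside -0.15. With 1000 added the medians at 10 µM were -0.57 beside -0.22 against 5 µM and 0.01 beside -0.12 against the control.

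A list of 25 measured genes of the egg and the embryo before implantation was followed as well. At 5 µM 21 were tested, 7 rose and 0 fell (14.1% and 2.17% of all symbols), with a median of 6.24 beside 0.14, or 0.49 beside 0.09 with 1000 added. In this list 16 genes were at 0 in all control libraries. Those of them that were tested passed the filter through 5 µM alone and could only rise. The median of 6.24 was the value of TPRX1, at 780, 0 and 547 FPKM at 5 µM and not called (adjusted p = 0.120). ZFP57, a zinc-finger protein that guards imprinted methylation, was listed at 765, 3422 and 1788 FPKM at 5 µM against 0 (adjusted p = 0.000713). The oocyte gene NLRP5 had 864, 454 and 323 against 0 (adjusted p = 0.00128), and KLF17, a factor of the human inner cell mass, 109, 1030 and 813 against 0 (adjusted p = 0.00291). With 1000 added the calls of NLRP5 and KLF17 were lost (adjusted p = 0.0194 with a difference under 1, and 0.0514). ZAR1, an oocyte RNA-binding protein, had 0, 0 and 584 in the control and 3370, 3001 and 4119 at 5 µM (adjusted p = 0.0369), a call lost without any single 5 µM replicate (0.103 to 0.115) or without control replicate 1 or 2 (0.0819 and 0.0907). At 10 µM vs. 5 µM 23 were tested, 0 rose and 4 fell, namely ZAR1, NLRP5, KLF17 and NLRP4, and all 4 were at 0 in all 10 µM libraries (4.82% of all symbols fell, median -4.71 beside -0.31, or -0.39 beside -0.22 with 1000 added). With every 10 µM library at 0, these 4 could only fall. Without 5 µM replicate 3 the calls of NLRP5, KLF17 and NLRP4 were lost (0.0603, 0.0985 and 0.0763), without 5 µM replicate 2 those of KLF17 and NLRP4 (0.0745 and 0.0591), without 5 µM replicate 1 those of NLRP5 and NLRP4 (0.0521 and 0.0762), and with 1000 added all 3 (0.0665, 0.121 and 0.187). Of the 15 tested at 10 µM vs. 0 µM none passed in either direction (0 rising and 0 falling, median 2.06 beside -0.15, or 0.13 beside -0.12 with 1000 added).

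**Figure D4:**
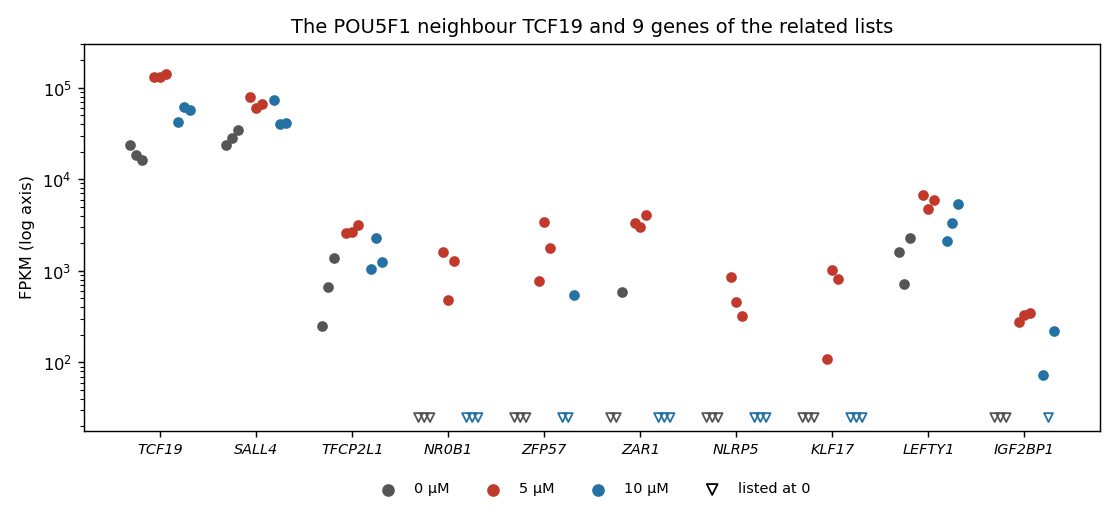
FPKM (log axis) of TCF19, the neighbour of POU5F1, and of 9 genes of the pluripotency, preimplantation, Nodal and LIN28 lists in each library, coloured by concentration of 5-Aza, with open triangles for libraries listed at 0. NR0B1, ZAR1, NLRP5 and KLF17 had values above 0 in all 5 µM libraries and were listed at 0 in all 10 µM libraries.

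The pathways in which TDGF1 and the LIN28 proteins act held 2 of 15 and 1 of 12 called genes at 5 µM, near the 14.1% of all symbols that rose and so no result about these pathways. Of 17 Nodal pathway genes 15 were tested at 5 µM, 2 rose and 0 fell, with a median of -0.02 beside 0.14, and no gene passed in the other comparisons (medians -0.26 for 10 µM vs. 5 µM and -0.11 for 10 µM vs. 0 µM, beside -0.31 and -0.15). LEFTY1, a secreted Nodal inhibitor that is also a Nodal target, rose from 1619, 715 and 2275 FPKM to 6731, 4722 and 5977 (log2 difference 2.06, adjusted p = 0.0195), and ACVR1C, a type I receptor, from 2047, 886 and 1060 to 3694, 4696 and 4616 (1.79, adjusted p = 0.0187). The LEFTY1 call was lost without 5 µM replicate 1 or 3 (adjusted p = 0.0736 and 0.0709), and the ACVR1C call without 5 µM replicate 2 or 3 (0.0608 and 0.0661).

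Among 12 partners of LIN28 and targets of let-7, all 12 were tested at 5 µM, 1 rose and 0 fell (median 0.16 beside 0.14). The gene that rose was IGF2BP1, an oncofetal RNA-binding protein and let-7 target, at 273, 328 and 346 FPKM against 0 in the control (adjusted p = 0.00161). With every control library at 0, IGF2BP1 passed the filter through 5 µM alone and could only rise. At 10 µM it was 73.7, 0 and 220, and no gene of the list passed in either comparison with 10 µM (medians -0.37 and -0.06 beside -0.31 and -0.15). With 1000 added the IGF2BP1 difference fell under 1. Of 12 let-7 hairpin genes 11 were listed at 0 in every library and MIR98 had a value in 10 µM replicate 1 alone. The library type, made from sheared poly(A) RNA with fragments far longer than a hairpin, limits what these values can show of microRNAs.

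Genes were also ranked by how closely their log2(FPKM + 1), centred on the mean of the 9 libraries, followed each member above 0 in all 9, among 15278 symbols likewise above 0. Nearest to POU5F1 were HCG27 (root mean square difference 0.15), LMAN1L (0.17) and SLC7A9 (0.17), against a median of 0.66 over all symbols. Nearest to LIN28A were FAM154B (0.37), MGC16703 (0.48) and FER1L5 (0.51), against 1.26, and nearest to TDGF1 were SNRNP27 (0.12), POLR3G (0.12) and BAMBI (0.13), against 0.40. These are descriptions over 9 libraries that share 3 concentrations.

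Markers of the labelled cell type were present throughout. All 12 colon epithelium markers were above 0 in every library, and their summed FPKM was 82919239 to 99349909 in the control, 35296142 to 39964165 at 5 µM and 27587639 to 48376815 at 10 µM. At 5 µM 2 rose, CDX1 (log2 difference 2.14, adjusted p = 0.000730) and CEACAM5 (1.59, adjusted p = 0.000288), and 3 fell, GPA33 (-1.75, adjusted p = 0.0155), KRT8 (-1.65, adjusted p = 0.00113) and KRT18 (-1.64, adjusted p = 0.000999). The median was -0.47 beside 0.14 over all tested symbols, of which 14.1% rose and 2.17% fell. At 10 µM vs. 0 µM 0 rose and 3 fell, GPA33 (-2.19, adjusted p = 0.0229), CDX2 (-1.38, adjusted p = 0.00996) and KRT20 (-1.31, adjusted p = 0.0344), beside 4.07% and 3.40% of all symbols. At 10 µM vs. 5 µM 0 rose and 1 fell, beside 0.129% and 4.82% of all symbols. This was CEACAM5 (-1.03, adjusted p = 0.0357), at 228307 to 385018 FPKM, still above its control values of 177026 to 216821 (0.57, adjusted p = 0.101). The CDX1 call at 5 µM was lost with all 9 samples in one fit (adjusted p = 0.0747). The GPA33 call at 5 µM was lost without 5 µM replicate 3 (0.0552), the CEACAM5 call at 10 µM vs. 5 µM without any single replicate of 5 µM (0.108 to 0.190) or 10 µM replicate 1 or 3 (0.0800 and 0.0857) and with other scaling (difference -0.82 or -0.93). At 10 µM vs. 0 µM the GPA33 and KRT20 calls were lost without control replicate 1 or 3 or 10 µM replicate 1 or 3 (0.0595 to 0.135), those of KRT20 and CDX2 also without control replicate 2 (0.127 and 0.0505).

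Most markers of fibroblasts, endothelium and blood were higher at 5 µM. DCN went the other way, from 1536, 0 and 0 FPKM in the control to 0 in every 5 µM library (adjusted p = 0.405). COL3A1, PTPRC and HBB were not called. Of 12 such markers 8 rose and 0 fell at 5 µM (14.1% and 2.17% of all symbols, median 4.78 beside 0.14, or 0.78 beside 0.09 with 1000 added). At 10 µM vs. 5 µM 0 rose and 3 (COL1A2, PECAM1 and CD68) fell, beside 0.129% and 4.82% of all symbols. At 10 µM vs. 0 µM 1, COL1A1, rose and 0 fell, beside 4.07% and 3.40%. Its difference was 1.75 (adjusted p = 0.0163, and 0.0598 to 0.0633 without control replicate 2 or 10 µM replicate 1 or 3). The falls of CD68 and PECAM1 were lost without any single 5 µM replicate (0.0699 to 0.127) and that of COL1A2 without 5 µM replicate 3 (0.0591). With all 9 samples in one fit the fall of PECAM1 was lost as well (0.0575). Of the rises, those of PDGFRB and COL1A2 were lost without any single 5 µM replicate (0.0661 to 0.115) or without control replicate 1 or 2 (0.0503 to 0.0889). The summed FPKM of all 12 was 133027 to 140057 in the control, 697920 to 746361 at 5 µM and 219559 to 367743 at 10 µM. Most of this was CD68, a lysosomal protein gene, and without it the sums were 7733 to 12895, 44543 to 57711 and 23224 to 29529. CD3E, a T-cell marker, was 0 in all controls and 732, 770 and 912 at 5 µM (adjusted p = 0.000793). CDH5 of endothelium was 0 in all controls and 405, 170 and 151 at 5 µM (adjusted p = 0.00271). At 0 in the control both could only rise, and both calls were lost with 1000 added. HBB was listed at 0 in 7 libraries. All libraries were labelled as cultures of the HT-29 line, so the values are given as RNA of these genes and not as a presence of such cells. The source of this RNA was not tested. GAPDH, named for scale, lay between 8574200 and 11066100 FPKM in the control and 5764900 and 6399150 at 5 µM (log2 difference -0.72, adjusted p = 0.00952, within the fold threshold).

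The 9 libraries held an estimated 1.20e+07 to 3.27e+07 fragments, the summed FPKM was 3.69e+09 to 5.91e+09 per library, and replicates of a group correlated at 0.957 to 0.970 on the log2 scale with no identical values beyond 0. A fragment of SOX2 was worth 129 to 332 FPKM over the 9 libraries, so the values lie on a scale of their own and serve for comparison between libraries, not as absolute levels.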

How the data were processed

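RNA-Seq of 9 HT-29 cultures (3 replicates at 0, 5 and 10 µM 5-Aza) was analysed from 1 FPKM table per library. The authors trimmed paired-end reads, aligned these with TopHat (hg19) and obtained FPKM (fragments per kilobase of transcript, scaled to the mapped fragments) from Cufflinks, and the deposited FPKM values were used as given. The TruSeq kit and the counting are not stated to keep strand. Entries with the same symbol were summed (24934 entries, 23284 symbols).

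Groups were taken from the labels. Log2(FPKM + 1) was compared with limma 3.58.1 (lmFit, eBayes with trend, R 4.3.3) over all symbols whose largest value in the 6 libraries reached 10, with Benjamini-Hochberg adjustment. A gene was called where the log2 difference passed 1 or -1 with an adjusted p no higher than 0.05, and ± gives the standard error. P-values rest on the spread between replicate cultures, moderated by that of symbols of similar level. A group at 0 throughout holds no spread of its own. LIN28B, with the same values against 0 in both comparisons, had a standard error of 1.12 for 5 µM vs. 0 µM and 1.54 for 10 µM vs. 5 µM. Its p-values, and those of other genes at 0 in a whole group, thus do not measure the spread between cultures alone. Comparisons share groups, the control cultures serving both 5 µM and 10 µM. The procedure was tested on simulated data, with changes planted only in genes of far more fragments than LIN28B, ZFP42 or NANOG. Calls at such low levels, or against a group at 0, were not covered by it.

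Fragments were estimated from FPKM steps. At 12 microRNA genes of 110 nt all 46 values above 0 were whole multiples of 1 step per library within 0.01, which gave relative depths. The relation of the step to annotated transcript length held within 10% for 236 of 358 genes, so fragments of POU5F1 and TDGF1, which show no clear step, are approximate. For NANOG, whose steps do not match its annotated length (ratio 0.380), each step was taken as 1 fragment. Fragment intervals and the 3-fragment limits cover counting error alone.

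The 10 members and the gene lists were chosen with earlier results of these data known. Named genes were the members, up to 4 called genes per list and comparison with the largest difference, the 3 symbols closest to each member above 0 in all libraries, the copies and overlapping genes, and GAPDH. HBB, MIR98, OTX2, TPRX1, DCN, COL3A1 and PTPRC were named after their values were seen. Same-numbered replicates did not deviate together (correlations -0.0743 to 0.086), so the main tests are unpaired. Alternatives changed the added constant, the low-value filter, the fold threshold, the scaling, the test, the pairing, the samples fitted and the replicates. Positions are from GENCODE on GRCh37, and promoter windows from RefSeq (GRCh38.p14 table) were placed on GRCh37 by exact match.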

Additional observations from a re-analysis of the deposited data

How the results depend on the processing

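The number of the 10 genes called at 5 µM vs. 0 µM (4 as reported) was 2 with 1000 added to FPKM in place of 1 and 2 where at least 10 estimated fragments were required (POU5F1 and SOX2 in both), and ranged from 2 to 4 with 1 replicate left out, 2 being without 5 µM replicate 1 (LIN28B and ZFP42). With limma treat it was 3, without POU5F1 (adjusted p = 1.000). The number at 10 µM vs. 5 µM (2 as reported) was 0 with 1000 added, 1 with at least 10 estimated fragments (SOX2, adjusted p = 0.0451), 0 with limma treat against a fold of 2 and 0 with a replicate block, and ranged from 0 to 3 with 1 replicate left out. The number at 10 µM vs. 0 µM (1 as reported) was 0 with 0.1 added, 0 with no filter on low values and 0 with limma treat, and ranged from 0 to 1 with 1 replicate left out. The numbers of genes listed above 0 remained within 1.5 times under each detection limit tried, at 2 to 4 in the control, 4 to 7 at 5 µM and 3 to 4 at 10 µM. Differences that turned in sign were those of NANOG at 5 µM vs. 0 µM (0.55 as reported, -2.06 to 3.43 with 1 replicate left out, below 0 without control replicate 1 and without 5 µM replicate 1 or 3), TDGF1 at 5 µM vs. 0 µM (-0.07 to 0.32 with 1 replicate left out, below 0 without 5 µM replicate 2) and TDGF1 at 10 µM vs. 0 µM (0.02 with equal totals). None of these was a call, and the cause of the changes was not tested. Over single genes, 835 values kept their direction and side of the threshold under an alternative, 144 lost the call, 2 gained it and 5 turned in sign.

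Same-numbered replicates are not stated to be paired and did not deviate together, so a replicate block removes only a number. With the block, the calls of POU5F1, SOX2, LIN28B and ZFP42 at 5 µM and of SOX2 at 10 µM vs. 0 µM were kept, those of LIN28B and ZFP42 at 10 µM vs. 5 µM had adjusted p = 0.122 and 0.101, and those of TFCP2L1 and ACVR1C at 5 µM had 0.0645 and 0.0593. Further calls lost with it were, at 10 µM vs. 5 µM, NR5A2 (0.0513), COL1A2 (0.0590), CEACAM5 (0.0607), NLRP5 (0.0642), KLF17 (0.0735), PECAM1 (0.0871) and NLRP4 (0.0889), and at 10 µM vs. 0 µM KRT20 (0.0628). Over all symbols, 2553 rose and 414 fell at 5 µM vs. 0 µM with the block (2818 and 436 without), and 11 rose and 407 fell at 10 µM vs. 5 µM (26 and 969 without). In the latter comparison falling symbols ranged from 176 without 5 µM replicate 3 to 1873 without 10 µM replicate 2. With limma treat, other named calls were lost at 5 µM vs. 0 µM for ACVR1C, COL1A2, GPA33, KRT8, KRT18, LEFTY1, PDGFRB, SALL4, TFCP2L1 and ZAR1 (adjusted p from 0.0658 to 0.538), at 10 µM vs. 5 µM for CD68, CEACAM5, NLRP4, NR5A2, PECAM1 and TCF19 (0.0571 to 1.000), and at 10 µM vs. 0 µM for CDX2, COL1A1, GPA33, KRT20, NR5A2 and TCF19 (0.292 to 1.000). With it 1463 rose and 70 fell at 5 µM vs. 0 µM, 7 rose and 374 fell at 10 µM vs. 5 µM, and 145 rose and 16 fell at 10 µM vs. 0 µM. With equal totals 3585 rose and 167 fell at 5 µM vs. 0 µM. At 10 µM vs. 0 µM median-of-ratios scaling gave 1125 and 284 (771 and 644 as reported), and leaving out 10 µM replicate 2 gave 819 and 1500. Depth limits LIN28B, ZFP42 and the DPPA genes, whose values rest on 5 fragments per library or fewer, and NANOG, at most 3 fragments by its steps or 7.88 by its annotated length.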
